A study of Mus musculus with 2 samples.

Results

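A set of 10 genes that mark the epicardium and the mesothelium were followed in mouse heart: Wt1, Tcf21, Upk3b, Upk1b, Bnc1, Bnc2, Msln, Lrrn4, Gpm6a and Muc16. They were chosen by gene symbol in the GENCODE M21 annotation, and 9 of the 10 had a row among the 43346 Ensembl genes of the quantifications. The exception was Muc16, for which a single older transcript model was present. The tissue was whole heart of mouse embryos of strain B6NCrl at 15.5 days, healthy and of both sexes, with no treatment and no second condition. Hearts of 78 embryos formed replicate 1 and hearts of 62 embryos formed replicate 2, so the spread between the libraries is a spread between 2 pools. The question the data allow is therefore at what level each gene stood and how well the pools agreed. There is no contrast between conditions, and with 2 libraries the smallest p that an exact test by sign flips allows is 0.5, so no p-values are given.

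The epicardium is the mesothelial sheet that covers the heart. It forms from the proepicardium, and some of its cells lose their epithelial character, enter the heart wall and give rise to fibroblasts and mural cells of vessels. The transcription factors Wt1, Tcf21, Bnc1 and Bnc2 and the surface proteins Upk3b, Upk1b, Msln, Lrrn4, Gpm6a and Muc16 are commonly used to mark this sheet or its derivatives. Most are also made by the mesothelium of lung, gut and body wall, so their levels alone do not separate cardiac from other mesothelium. In RNA from a whole organ, fewer cells of a type and less RNA per cell cannot be told apart.

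The libraries held 41883313 expected counts in replicate 1 and 39697992 in replicate 2, where an expected count is an estimated number of reads. Levels between genes were compared as TPM, a transcript abundance that is scaled to the same total in each library and divides reads by transcript length. At an effective length of 1 kilobase, 1 read corresponded to 0.0308 TPM in the first library and 0.0345 in the second. Replicate 2 had a higher share of spike-in reads, 3.12% against 1.58%. It also stood apart in lists of marker genes of other tissues. Its summed TPM was 9.98-fold higher for 9 thymus genes, 5.65-fold for 6 genes of stratified epithelium and 5.0-fold for 12 genes of neurons and glia. The sum was 4.4-fold higher for 10 liver genes and 2.52-fold for 10 genes of lung epithelium. These lists were chosen with earlier results of these data known, and the source of their reads was not tested.

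The 9 measured genes ranged from 1.555 to 48.6 TPM in mean level and kept the same order in both pools. Of the 9 genes, 8 reached 1 TPM in both libraries, against 58.2% of the 21474 protein-coding genes. The exception was Bnc2, at 0.94 TPM in replicate 1. The order by mean TPM was Tcf21, Upk3b, Msln, Wt1, Gpm6a, Upk1b, Lrrn4, Bnc1 and Bnc2, and 9 of 9 held the same rank in both libraries. For no pair of neighbours in this order did the ranges of the 2 libraries overlap. The smallest steps were Wt1 over Gpm6a, 1.10-fold in each library, and Tcf21 over Upk3b in replicate 2, 1.09-fold. The order rests on division by length: by CPM, which leaves length out, the order began with Upk3b, Gpm6a and Tcf21, and only Bnc1 and Bnc2 kept their rank. The order of those 2 rests on the estimate: by the authors' posterior mean TPM, Bnc2 stood above Bnc1 in both libraries, at 2.58 against 2.53 and 4.17 against 3.35.

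**Figure D1:**
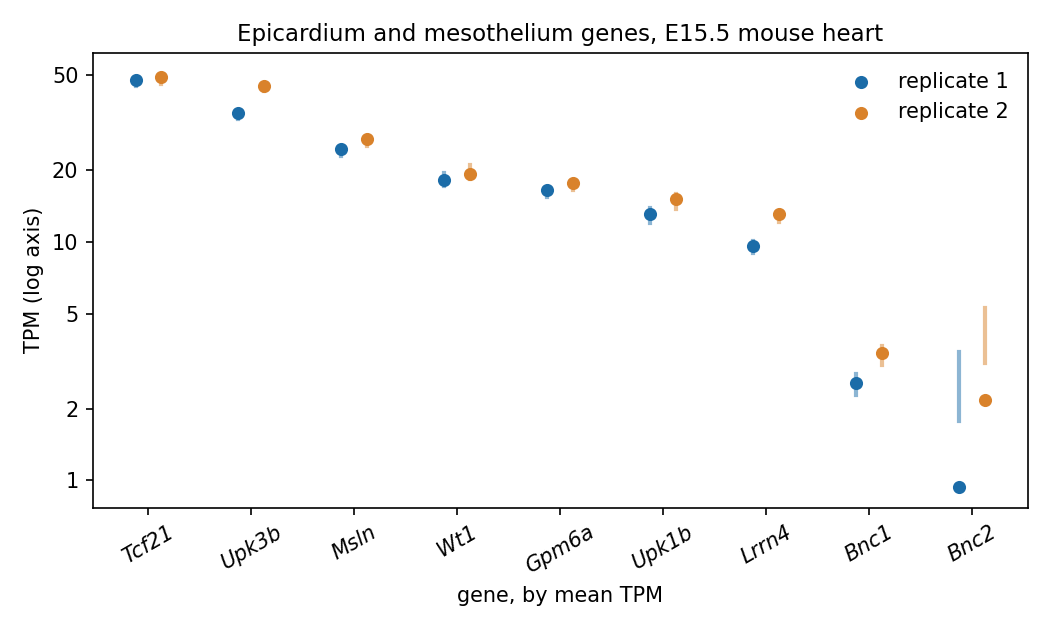
TPM of the 9 measured genes on a log axis, ordered by mean, with 1 point per library and a bar for the bounds the authors deposited around their posterior mean TPM. Tcf21 stood near 48 TPM in both libraries, and the points of Bnc2, at 0.94 and 2.17 TPM, lie below their bars.

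Among the transcription factors, Tcf21 had the highest level. Tcf21 encodes a basic helix-loop-helix factor that epicardial cells and the fibroblasts derived from them both express. The gene lies on chromosome 10 at 22817281 to 22820174 of GRCm38, minus strand. It measured 47.92 TPM in replicate 1 and 49.28 TPM in replicate 2, a mean of 48.6 ± 0.962 TPM (SD, n = 2), from 1749 and 1606 counts. The level lay above that of 88.0% of protein-coding genes and was 2.64 and 2.55 times that of Wt1 in the 2 libraries. An annotated antisense gene, Gm10824, spans all 2894 bases of Tcf21. It has no row in the quantifications, and the sources used here do not say if strand entered the counting, so its reads and those of Tcf21 cannot be told apart.

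Wt1 encodes the zinc-finger factor that is the most used marker of the epicardial sheet, and it is also active in podocytes and gonads. It lies on chromosome 2 at 105126529 to 105173616, plus strand. Wt1 measured 18.14 TPM in replicate 1 and 19.33 TPM in replicate 2, a mean of 18.7 ± 0.841 TPM (SD, n = 2), from 1413 and 1358 counts. The 2 pools differed little, and the level lay above that of 73.7% of protein-coding genes. The divergent antisense gene Wt1os is separated from the start of Wt1 by a gap of 18 bases and measured 0.73 and 1.47 TPM, from 34 and 42 counts. Of the 7 genes fixed for kidney and gonad, the podocyte gene Nphs1, the kidney factors Pax2 and Pax8 and the Sertoli gene Amh had between 0 and 7 counts per library. Pax8 was the one at 0, in replicate 1, which allows up to 0.0703 TPM at a floor of 3 counts. Sox9, which heart valves also express, was the highest of the list, at 20.41 and 22.80 TPM. Six2, a factor of nephron progenitors, had 11 and 104 counts. The part of kidney, gonad or other mesothelium in the Wt1 level was not tested.

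Bnc1 and Bnc2 encode the basonuclins, a pair of related zinc-finger proteins, and were the lowest of the 9 genes by TPM. Bnc1, on chromosome 7 at 81966672 to 81992292, minus strand, measured 2.57 and 3.41 TPM, a mean of 2.99 ± 0.594 TPM (SD, n = 2), from 380 and 450 counts. A pseudogene on the opposite strand, 4833418N17Rik, shares 291 bases with Bnc1 and had 2 counts in each library. Bnc1 is also known from keratinocytes. The summed level of the 6 genes of stratified epithelium was 9.40 TPM in replicate 1 and 53.06 TPM in replicate 2. Dsg3 of that list was at 0 counts in replicate 1, which allows up to 0.023 TPM. Of the list, 4 genes had enough counts in each library for a ratio. Their log2 ratios after scaling ranged from 0.362 to 3.145, with a median of 2.492. That of Bnc1 was 0.17. The part of keratinocytes in the Bnc1 level was not tested.

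Bnc2, on chromosome 4 at 84275095 to 84675275, minus strand, measured 0.94 TPM from 79 counts in replicate 1 and 2.17 TPM from 185 counts in replicate 2. It was the least certain of the levels. The annotation used for the files holds 22 Bnc2 transcripts, 12 of which had 0 counts in both libraries. Transcript Bnc2-202 held 41.15 counts in replicate 1 and 142.44 in replicate 2, the most of any Bnc2 transcript in each. The authors' posterior mean TPM was 2.58 and 4.17, and their bounds of 1.77 to 3.44 and 3.11 to 5.27 lie above the TPM in both libraries. The mean level was thus 1.555 TPM by the one estimate and 3.375 by the other. For the other 8 genes, TPM lay inside the deposited bounds in both libraries.

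The surface proteins spanned from 9.66 to 45.20 TPM. Upk3b, a uroplakin, is on chromosome 5 at 136038496 to 136046487, plus strand. It measured 34.65 TPM in replicate 1 and 45.20 TPM in replicate 2, a mean of 39.9 ± 7.46 TPM (SD, n = 2), from 2528 and 2945 counts. Upk1b, a uroplakin of the tetraspanin type, is on chromosome 16 at 38773184 to 38800328, minus strand. It measured 13.15 and 15.14 TPM, a mean of 14.1 ± 1.41 TPM (SD, n = 2), from 713 and 733 counts. Upk3b stood 2.64-fold above Upk1b in replicate 1 and 2.99-fold above it in replicate 2.

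The other uroplakins, which with these 2 build the plaques of the bladder surface or are related to them, were low in replicate 1, at 1 to 17 counts, and reached 15 to 59 counts in replicate 2. Upk1a measured 0.38 and 1.23 TPM from 15 and 43 counts. Upk2 measured 0.04 and 0.67 TPM from 1 and 15 counts, and Upk3a measured 0.18 and 1.92 TPM from 6 and 56 counts. Upk3bl, a paralog close to Upk3b on chromosome 5, measured 0.59 and 2.21 TPM from 17 and 59 counts. None of these 4 reached 1 TPM in both libraries, beside 58.2% of protein-coding genes that did, and each had fewer counts in replicate 1. In each library Upk2 and Upk3a, which pair with Upk1a and Upk1b in the bladder, stood below both Upk3b and Upk1b.

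Msln encodes mesothelin, a lipid-anchored surface protein, and lies on chromosome 17 at 25748613 to 25754378, minus strand. It measured 24.58 and 26.99 TPM, a mean of 25.8 ± 1.7 TPM (SD, n = 2), from 1608 and 1577 counts. This was 1.36 and 1.40 times the level of Wt1. The neighbouring paralog Mslnl had 0 and 8 counts.

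Gpm6a encodes a membrane glycoprotein best known from neurons and is on chromosome 8 at 54954843 to 55060871, plus strand. It measured 16.51 and 17.58 TPM, a mean of 17.0 ± 0.757 TPM (SD, n = 2), from 1735 and 1650 counts. Its ratio to Wt1 was 0.910 and 0.909. Other annotated genes on the same strand, Gm45262 to Gm45265 and A230085B16Rik, share from 1375 to 3995 bases with the span of Gpm6a. They have no row in the quantifications, and whether they share exon bases with Gpm6a was not examined. The 12 genes fixed for neurons and glia summed to 14.49 TPM in replicate 1 and 72.44 TPM in replicate 2. Stmn2 was the highest of them at 5.70 and 22.54 TPM, and Olig2 was at 0 counts in each, a floor of 0.0395 and 0.0443 TPM. Of the list, 10 genes had 10 counts or more in each library. Their log2 ratios after scaling ranged from 0.167 to 3.795, with a median of 2.350. That of Gpm6a was -0.15. The part of neurons in the Gpm6a level was not tested.

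Lrrn4, a leucine-rich repeat membrane protein, is on chromosome 2 at 132868305 to 132880891, minus strand. It measured 9.66 and 13.11 TPM, a mean of 11.4 ± 2.44 TPM (SD, n = 2), from 1134 and 1374 counts. Its ratio to Wt1 was 0.533 in replicate 1 and 0.678 in replicate 2.

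Muc16, the large membrane mucin of mesothelial surfaces, spans 18495455 to 18674530 on chromosome 9. Its longest annotated transcript has 25437 bases, but the quantifications hold one model of 1035 bases, Muc16-201, that covers only 18495455 to 18512885. This model measured 0.66 TPM in replicate 1 and 0.81 TPM in replicate 2, from 20 and 22 counts. The deposited bounds were 0.41 to 0.98 and 0.51 to 1.18 TPM. The values describe that short model, and reads from the rest of Muc16 were not analysed here, so the gene was left out of the counts over levels and ratios.

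The ratio of the pools was then set out for each gene, as log2 of replicate 2 over replicate 1 after scaling the counts by TMM, edgeR's trimmed mean of M-values, with an exact 95% interval that covers counting error only. Summed over the 9 genes, 11339 counts in replicate 1 and 11878 in replicate 2 gave a ratio of -0.006 (-0.043 to 0.032). Past a 1.5-fold ratio, 1 of the 9 genes was higher in replicate 2, against 11.2% of the 17029 genes that had 10 counts or more in each library, and 0 were lower, against 4.74%. Within 1.5-fold lay 8 of 9 members, 88.9%, beside 84.1% of all genes tested and 89.7% of the 10636 genes in the same range of TPM. The agreement of the members was therefore close to that of other genes of like level. Their median absolute ratio was 0.148, beside 0.221 over all genes and 0.186 over genes of like level.

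Bnc2 was the gene past 1.5-fold, at 1.16 (0.77 to 1.55) or 2.23-fold. The call depends on the estimate. By the authors' posterior mean TPM the Bnc2 ratio was 1.62-fold as deposited and 1.40-fold relative to the median gene, which is inside 1.5-fold, and the deposited bounds overlapped between the libraries. Lrrn4 stood at 0.20 (0.09 to 0.32), Bnc1 at 0.17 (-0.03 to 0.37) and Upk3b at 0.15 (0.07 to 0.22). On the other side of 0 stood Tcf21 at -0.20 (-0.29 to -0.10), Gpm6a at -0.15 (-0.24 to -0.05), Wt1 at -0.13 (-0.24 to -0.02), Msln at -0.10 and Upk1b at -0.03 (-0.18 to 0.12). Of the intervals, 3 lay above 0, 3 below and 3 included 0. These signs depend on the scaling: all 9 genes were higher in replicate 2 by TPM, scaling by total gene counts turned Wt1, Gpm6a, Msln and Upk1b positive, and scaling by spike-ins placed all genes but Bnc2 below 0. What no scaling by 1 factor per library alters is the ratio of counts between genes, so Upk3b and Lrrn4 were higher relative to Wt1, Gpm6a and Tcf21 in replicate 2 by more than counting error whichever scaling is used.

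**Figure D2:**
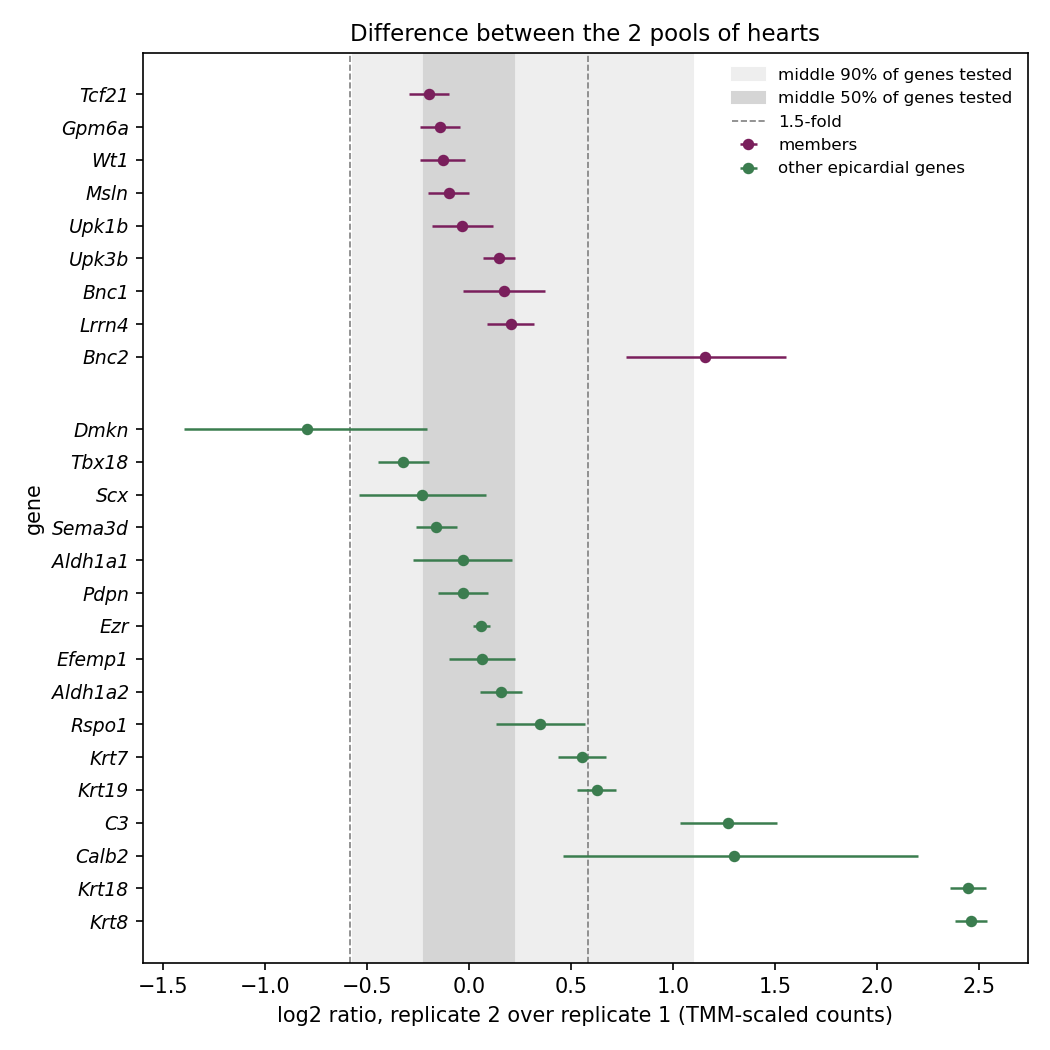
Log2 ratio of replicate 2 over replicate 1 after TMM scaling, with exact 95% intervals, for the 9 members and 16 other epicardial genes; grey bands hold the middle 50% and 90% of the 17029 genes tested and dashed lines mark 1.5-fold. In all, 8 members lie between the dashed lines, whereas Krt8 and Krt18 lie beyond 2 on this scale.

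Other genes used to describe epicardium were less uniform. Of a list of 16, 15 reached 1 TPM in both libraries, beside 58.2% of protein-coding genes. On the TMM scale 10 of 16, 62.5%, lay within 1.5-fold, beside 84.1% of all genes tested. Past 1.5-fold, 5 were higher and 1 lower in replicate 2, beside 11.2% and 4.74% of all genes tested. Tbx18, a T-box factor of the proepicardium, measured 7.5 and 7.06 TPM with a ratio of -0.32. Aldh1a2, the main retinoic acid synthesising enzyme of the epicardium, measured 20.12 and 26.36 TPM with a ratio of 0.15, and the related enzyme Aldh1a1 measured 4.44 and 5.12 TPM with -0.03. Thus the enzymes and Tbx18 lay within 1.5-fold, as the members other than Bnc2 did.

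Sema3d, a secreted guidance protein, and Scx, a tendon and proepicardium factor, measured 8.02 and 8.44 TPM and 5.46 and 5.49 TPM. Pdpn, a mucin-type membrane protein, measured 18.95 and 21.90 TPM, and Ezr, a linker of membrane and actin, measured 90.14 and 111.50 TPM. Efemp1, a matrix protein, measured 10.38 and 13.18 TPM, and Rspo1, a Wnt agonist, 5.45 and 8.17 TPM. All 6 of these genes lay within 1.5-fold. Dmkn, a secreted epithelial protein, was the one past 1.5-fold in the other direction, at 2.95 and 2.30 TPM with a ratio of -0.80. Calb2, calretinin, was the one below 1 TPM in a library, at 0.39 and 1.14 TPM with a ratio of 1.30, and complement C3 measured 1.46 and 4.66 TPM with 1.27.

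The keratins, structural filaments of simple epithelia that mesothelium shares with many other epithelia, held the 2 largest ratios of this list, those of Krt8 and Krt18. Krt8 measured 27.26 TPM in replicate 1 and 176.73 TPM in replicate 2, a ratio of 2.46 or 5.51-fold. Krt18, its filament partner, measured 28.12 and 180.34 TPM, a ratio of 2.45 or 5.45-fold. Krt19 measured 35.64 and 68.04 TPM with 0.63, and Krt7 measured 14.17 and 22.83 TPM with 0.55, the latter just inside 1.5-fold. Krt8 and Krt18 have many processed pseudogenes, so reads shared with them are uncertain. Beside these values, Epcam and Cdh1, epithelial adhesion genes that are low in mesothelium, measured 6.14 and 29.57 TPM and 2.96 and 14.30 TPM, and the part of such cells in the keratin ratios was not tested.

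**Figure D3:**
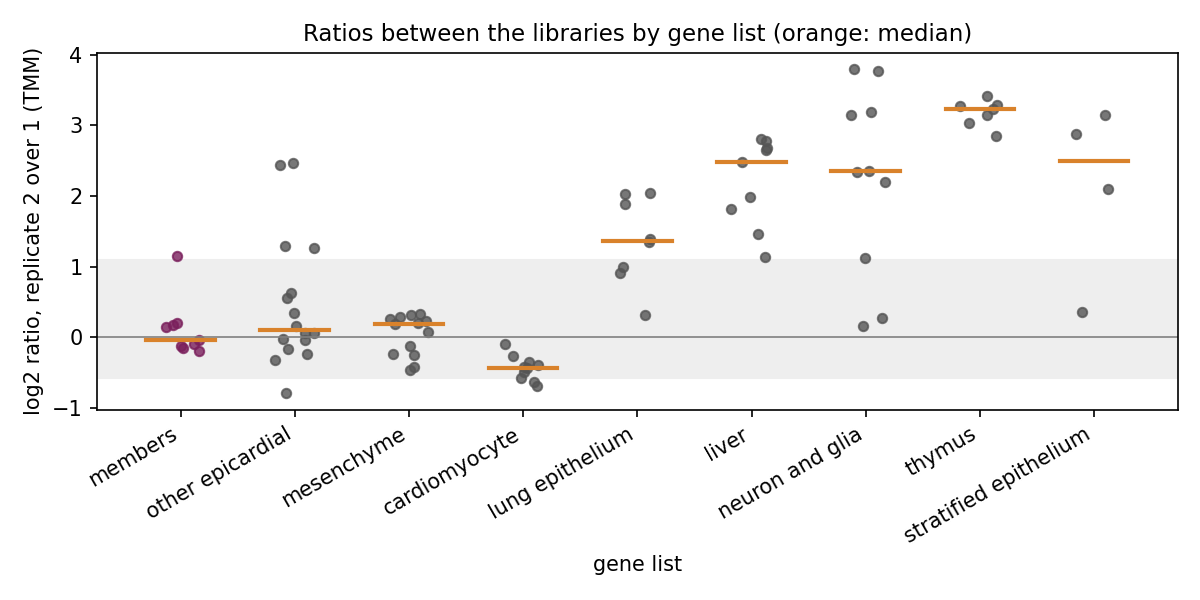
Log2 ratio of replicate 2 over replicate 1 after TMM scaling for each gene that had 10 counts or more in each library, by list, with the list's median as an orange line and a grey band for the middle 90% of all genes tested. The members' median is -0.033, that of the mesenchyme list is 0.194, and those of liver and thymus are 2.478 and 3.228.

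The members' ratios were set beside those of tissues inside and around the heart. For 13 mesenchymal genes, of the kind that epicardium-derived fibroblasts express, 13 of 13 lay within 1.5-fold after TMM scaling. Over all genes tested that share was 84.1%. The summed level of the 13 was 2601 TPM in replicate 1 and 3147 TPM in replicate 2, with Col3a1 the highest and Twist1 the lowest. For 10 cardiomyocyte genes the median ratio was -0.430, and 2 of the 10 were lower past 1.5-fold, beside 4.74% of all genes tested. Their summed level in replicate 2 was 0.832 times that of replicate 1, with Actc1 the highest and Ryr2 the lowest. By median ratio after TMM scaling the members, at -0.033, lay between these lists and near the -0.016 of all genes tested. The mesenchyme list stood at 0.194. Over the 9 members the summed TPM was 168.1 and 192.2, a ratio of 1.143, beside 1.21 for the mesenchyme list. These TPM ratios include the shift between the scales, since all 9 members were higher in replicate 2 by TPM. They do not set the members nearer to mesenchyme than to other genes.

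Genes of other tissues had ratios of another size. In the thymus list, 7 genes had 10 counts or more in each library. All 7 were higher in replicate 2 past 1.5-fold, beside 11.2% of all genes tested. Among them was Lck, a T cell kinase and the highest of the list, at 5.67 and 51.02 TPM. Foxn1, Psmb11, Rag1, Rag2, Ptcra and Cd3e were the others past 4-fold with 100 counts or more, and Dntt was the lowest. In the liver list, Alb, Afp, Apoa1, Ttr and Fgb were past 4-fold, Trf was the highest at 31.49 and 104.30 TPM and Hnf4a the lowest. In the nerve list Th, Dbh, Prph, Stmn2 and Tubb3 were among those past 4-fold, and in stratified epithelium Krt5, Krt15 and Trp63 were. In lung epithelium Epcam and Cdh1 were, while Sftpc was the highest at 117.78 and 276.30 TPM and Sftpd the lowest. Pleural mesothelium makes most of the 9 genes too, and the part of lung surface in their levels was not tested.

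Wt1 was the member with several measured transcripts, apart from Bnc2, and 7 members had 1 transcript each in the files. The classes described here turn on 3 places at which Wt1 transcripts differ. They begin in an upstream first exon, at 105126529 to 105127442, or in an internal first exon, at 105130883 to 105131152, which is 4354 bases into the gene. They hold or skip exon 5, and they end exon 9 at a short or at a long splice donor, which adds 9 bases that encode the residues KTS between the last zinc fingers. The forms without KTS are known to bind DNA more tightly, and the forms with KTS are found more with RNA and splicing factors. Both alternative stretches are shown because the classes below turn on them. They were read from the GENCODE M21 transcripts on GRCm38, plus strand, with the whole of exon 5 and the 9 KTS bases in capitals.
exon 5, chr2:105144142-105144192: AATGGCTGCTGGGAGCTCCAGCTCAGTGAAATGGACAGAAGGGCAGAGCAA
end of exon 9, long donor, chr2:105169980-105170018: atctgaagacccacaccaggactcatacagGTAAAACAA
end of exon 9, short donor, chr2:105169980-105170009: atctgaagacccacaccaggactcatacag

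The coding transcripts Wt1-205, Wt1-201 and Wt1-202 held most of the Wt1 level in both pools. Wt1-205, which starts upstream, holds exon 5 and carries KTS, measured 6.03 and 6.63 TPM, which is 33.25% and 34.29% of Wt1. Wt1-201, which starts at the internal exon, skips exon 5 and carries KTS, measured 5.26 and 6.76 TPM, 29.00% and 34.99%. Wt1-202, which starts at the internal exon, holds exon 5 and lacks KTS, measured 4.44 and 3.70 TPM, 24.50% and 19.15%. The deposited bounds of each of the 3 overlapped between the libraries, at 4.85 to 6.62 and 5.09 to 7.12 TPM for Wt1-205, 3.82 to 6.49 and 5.19 to 8.26 for Wt1-201, and 3.20 to 5.65 and 2.36 to 5.13 for Wt1-202.

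The other Wt1 models were minor. Wt1-208, a retained-intron model, measured 1.80 and 1.42 TPM, 9.90% and 7.33%, and Wt1-206, another, measured 0.51 and 0.42 TPM. Wt1-207, which skips exon 5 and also the exon just before it, measured 0.10 and 0.30 TPM. Wt1-204 was listed at 0 and 0.10 TPM, and Wt1-203 at 0 in both. The deposited upper bounds for Wt1-203 were 0.685 and 1.02 TPM, so a level of that size was not detectable as separate from 0.

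**Figure D4:**
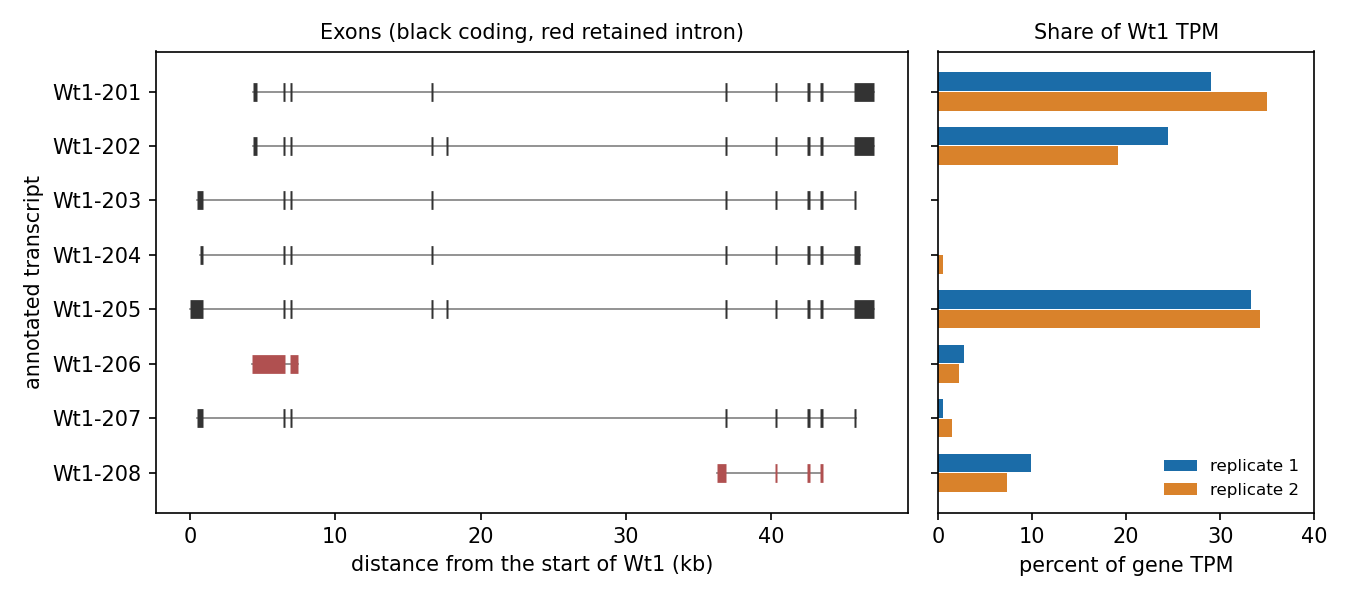
Left, exons of the 8 Wt1 transcripts by distance in kilobases from the start of the gene, coding models in black and retained-intron models in red and the shortest exons widened to be visible; right, each transcript's share in percent of the Wt1 TPM in each library. Wt1-201, Wt1-202 and Wt1-205 carry the longest bars in both libraries, with Wt1-205 at 33.25% and 34.29%.

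Grouped by these choices, the shares of coding Wt1 TPM were much alike in the pools. Forms with KTS made up 71.95% and 78.27%, a mean of 75.1% ± 4.47 (SD, n = 2), and forms without KTS the remaining 28.05% and 21.73%. Forms with exon 5 made up 66.14% and 59.06%, a mean of 62.6% ± 5.0 (SD, n = 2). Forms from the internal first exon made up 61.28% and 59.81%, a mean of 60.5% ± 1.04 (SD, n = 2), and 55.33% and 54.39% by expected counts. Retained-intron models held 12.73% and 9.52% of all Wt1 TPM. The annotation holds only some combinations: the one model with exon 5 and without KTS also starts at the internal exon, so the 3 shares are not independent estimates, and a transcript that combines the choices otherwise would be assigned to these models.

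Promoter windows, from 250 bases before to 50 after the annotated start, were found for 7 of the 10 genes, Muc16 among them, in the RefSeq table on GRCm38.p6. They were searched on both strands for 5 short motifs. GGAATG, the core of TEAD sites, was in the windows of Upk3b, Lrrn4 and Gpm6a, 3 of the 7 genes, and in 14.7% of all 32851 windows. AGATAA was found for Tcf21 and in 11.2% of windows, and GGGCGG for Bnc1 and Gpm6a and in 35.7%. TATAAA was found for Gpm6a and in 13.6% of windows, and CAGCTG for none of the members and in 16.3%. TEAD factors act with the Hippo pathway, which is known to take part in epicardial development, and so the matches are shown, with the motif in capitals, read in the direction of the gene. A match is a description and not a site.
Upk3b, chr5:136038246-136038272, plus strand: aggaacggaCATTCCgagctggggaag
Lrrn4, chr2:132881041-132881070, minus strand: gggctggagctgGGAATGccaggtctatgg
Gpm6a, chr8:54779297-54779326, plus strand: ggggtgctgcagGGAATGtatgggggcaat

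The Upk3b match is on the opposite strand of the gene, at 241 bases before the start, and the Lrrn4 match is at 196 bases before it. The Gpm6a match, at 125 bases before a start, belongs to a RefSeq start upstream of the one Gpm6a transcript that was measured. The windows differed in base composition: that of Bnc1 had 83.3% G and C and that of Bnc2 36.3%, around a median of 52.7% over all windows.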

How the data were processed

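RNA longer than 200 nt from the 2 pools was sequenced from 10 ng with spike-ins added, per the labels. Per the file headers, quantification was on mm10 with GENCODE M4 models. The sources used here name neither aligner nor quantifier. Expected counts, as deposited, estimate reads and carry no normalization. The deposited TPM are scaled by the authors over all features, spike-ins included, so a higher share of another RNA lowers each gene's TPM. The authors' deposited percent is each transcript's share of its gene's TPM. The authors also deposited a posterior mean TPM with bounds whose level is not stated.

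Genes were matched by identifier to GENCODE M21, with 42462 of 43346 found. The 97 spike-ins (1.58% and 3.12% of counts) and 26248 short features were left out of library sizes. Expected counts were rounded and scaled by TMM in edgeR 4.0.16 (R 4.3.3), and by total counts, spike-ins, DESeq2 1.42.0 size factors or TPM with a pseudocount of 0.1 as alternatives. The ratio script was tested on simulated data. Intervals are exact binomial at 95% (scipy 1.17.1, Python 3.11.15) and, like the floor of 3 counts, cover counting error only. Members and lists were chosen with earlier results of these data known. All members, other epicardial genes and uroplakins are named; of each further list, the highest, the lowest and genes 4-fold apart with 100 counts or more are. Some list genes are not reported here.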

Additional observations from a re-analysis of the deposited data

Results flagged for a closer look

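Muc16 lies outside the gene-level values, since its current gene identifier has no row in the quantifications. The short transcript Muc16-201 at its 3′ end nonetheless held 20 counts in replicate 1 and 22 counts in replicate 2, above the 3 counts that a count of 0 allows. No control samples exist to set these against.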

How the results depend on the processing

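The median level over the 9 measured genes, 17.045 TPM, was 17.887 with TPM rescaled over Ensembl genes only and 21.749 without hemoglobin and mitochondrial genes, and 16.510 to 17.580 with either library left out. The ratio of summed counts, -0.006, was 0.167 by total gene counts, 0.193 by TPM and -0.922 by spike-ins. By spike-ins 0 members were higher and 8 lower past 1.5-fold; 0 were higher without Bnc2, and 0 by posterior mean TPM relative to the median gene, both alternatives chosen after seeing the data. The share of Wt1 from the internal first exon, 60.54%, was 58.97% by posterior mean TPM and 54.86% by counts. With either library left out, detection was 8 to 9 genes, forms with KTS 71.95 to 78.27%, with exon 5 59.06 to 66.14% and from the internal exon 59.81 to 61.28%. The causes were not tested. Over all genes, 15.93% were past 1.5-fold, 26.95% with at least 1 count in both libraries and 9.04% with at least 50. No paired analysis was possible because there is 1 group. Depth was lowest for Muc16-201, at 20 and 22 counts, and among the 9 genes for Bnc2, at 79 and 185.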
